A study of Mus musculus with 26 samples.

Results

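The proximal 56 Mb of mouse chromosome 11 in the replication table, from 3.2 to 59.2 Mb of the mm10 build, were examined across 9 blastomeres of 8-cell embryos. The table held 1384 bins of 40 kb there, of 51976 bins in all, and the RNA table held 969 of its 55487 genes there. The region was selected on the deposited replication states, because embryo 2 cell 3 had few replicated bins in it. The states of that cell in these bins are therefore given as a description with no test. In that cell 116 bins (8.39%) were replicated, whereas 880 to 1200 bins (65.2% to 87.1%) were replicated in the other 5 cells of its embryo. RNA was not used for the selection. The RNA of genes of the region was not lower in this cell than in its sister cells beyond the spread between cells.

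Both values came from the same cells by scRR-seq, in which beads retain the genomic DNA of a lysed cell for copy number sequencing and the RNA in solution is made into full-length total RNA libraries. The embryos came from C57BL/6 oocytes and sperm by in vitro fertilization, and the sources used here name no mutant allele, drug or other treatment for either embryo. Embryo 1 gave 3 cells (cells 1, 6 and 7) that the study placed outside S phase, and embryo 2 gave 6 cells in S phase (cells 2, 3, 5, 6, 7 and 8), called sisters here. Each embryo is 1 biological replicate and each sample is a single cell, so spreads are between sister cells and no p-value was computed.

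During S phase each chromosome is copied in domains that follow a fixed order. Gene-rich, GC-rich domains tend to be copied early and gene-poor, AT-rich domains late, and this order is called replication timing. In a single S-phase cell, replicated DNA is present at a higher copy number than unreplicated DNA, and a hidden Markov model turns this into a state for each bin. Because the state is called from copy number, DNA that a cell had not yet copied and DNA of which it had lost a copy cannot be told apart in this table. Here the timing of a bin is the number of the other 5 embryo 2 cells, from 0 to 5, in which it was replicated, so that a bin replicated in all 5 is earliest.

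Of the 8 markers listed for the blastomere, 7 were above 1 TPM in all 9 cells, with Dppa3, a maternal factor of the preimplantation embryo, at 1138 to 2169 TPM, and Sox2 was at or below 0.6 TPM. TPM is the share of a transcript in the RNA of its cell, corrected for length and scaled to the same total in every cell. The cumulus cell markers Has2, Cyp19a1 and Fshr were listed at 0 in all 9 cells and Inhba and Foxl2 stayed at or below 0.56 TPM, whereas Amhr2 was at 9.73 to 35.4 TPM. The summed level of the 6 cumulus markers was 9.84 to 35.4 TPM and that of the blastomere markers 1738 to 3018 TPM.

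To show the kinds of DNA that the region contains, promoters of 5 of its genes are printed, chosen to cover the states described below. Each is 250 bases before to 50 bases after the start of the RefSeq transcript, 5′ to 3′ on the coding strand, GRCm38 build, with CG dinucleotides in capitals. Rack1 (chr11:48800110-48800409, plus strand) was unreplicated in embryo 2 cell 3 and replicated in the other 5 cells. Hnrnpab (chr11:51606832-51607131, minus strand) and Timd2 (chr11:46707055-46707354, minus strand) were replicated in all 6. Pttg1 (chr11:43425932-43426231, minus strand) was unreplicated in cells 3 and 6. Gabra6 (chr11:42321023-42321322, minus strand) was unreplicated in all 6.
Rack1: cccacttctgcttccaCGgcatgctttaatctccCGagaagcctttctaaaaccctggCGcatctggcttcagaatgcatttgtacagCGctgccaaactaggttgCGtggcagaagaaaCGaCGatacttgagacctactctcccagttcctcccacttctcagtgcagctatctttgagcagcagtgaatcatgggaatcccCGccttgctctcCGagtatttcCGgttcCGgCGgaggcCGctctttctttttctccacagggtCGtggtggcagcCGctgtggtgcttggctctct
Hnrnpab: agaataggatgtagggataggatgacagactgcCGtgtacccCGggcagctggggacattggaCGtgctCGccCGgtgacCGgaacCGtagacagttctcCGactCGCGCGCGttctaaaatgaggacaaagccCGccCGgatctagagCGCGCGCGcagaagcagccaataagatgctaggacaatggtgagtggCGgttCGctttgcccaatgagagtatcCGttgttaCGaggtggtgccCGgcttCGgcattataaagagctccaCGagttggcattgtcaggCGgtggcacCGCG
Timd2: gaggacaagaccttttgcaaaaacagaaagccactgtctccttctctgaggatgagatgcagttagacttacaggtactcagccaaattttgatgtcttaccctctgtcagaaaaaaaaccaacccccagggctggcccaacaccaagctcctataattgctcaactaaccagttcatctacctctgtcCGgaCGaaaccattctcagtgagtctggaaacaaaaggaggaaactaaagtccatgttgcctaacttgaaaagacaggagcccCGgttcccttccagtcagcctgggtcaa
Pttg1: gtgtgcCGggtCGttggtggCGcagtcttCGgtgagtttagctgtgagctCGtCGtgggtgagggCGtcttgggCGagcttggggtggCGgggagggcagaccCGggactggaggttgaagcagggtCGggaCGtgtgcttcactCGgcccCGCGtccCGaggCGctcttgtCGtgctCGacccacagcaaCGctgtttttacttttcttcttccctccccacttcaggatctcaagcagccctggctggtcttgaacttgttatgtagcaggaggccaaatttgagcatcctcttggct
Gabra6: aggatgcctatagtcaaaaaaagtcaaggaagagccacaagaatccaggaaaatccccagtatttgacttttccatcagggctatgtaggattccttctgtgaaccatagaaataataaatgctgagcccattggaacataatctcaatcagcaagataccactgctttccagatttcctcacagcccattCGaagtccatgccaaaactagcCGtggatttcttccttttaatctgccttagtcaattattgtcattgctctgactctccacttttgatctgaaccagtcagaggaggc

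These 5 promoters held 15, 28, 3, 20 and 2 CG dinucleotides, in that order. The GC box GGGCGG, searched on both strands, was found only in the Hnrnpab window among the 5. Of all 32851 promoters of 300 bases in the RefSeq table, 35.7% held that motif, and 37.5% of the 733 in the region did. The median was 7 CG dinucleotides over all promoters and 8 over those of the region. It was 14 for the 328 promoters of genes unreplicated in embryo 2 cell 3 alone and 13 for the 82 promoters of genes replicated in that cell. The motif was in 52.7% and 42.7% of them, respectively. Not all 733 promoters of the region were assigned to a class of state. The class values and the region value therefore cover different sets and are not compared. CpG-rich and CpG-poor promoters were thus present on both sides of the division in this cell. RefSeq entries were found for 362 of the 456 protein-coding genes of the region.

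The question for the DNA was how far this region departed from the replication of the remaining genome in each cell. In its share of replicated bins outside the region and on the rest of chromosome 11, embryo 2 cell 3 lay within the range of its sisters. Outside the region 76.0% of its bins were replicated, against 75.1% ± 7.30 (SD, n = 5) in the other embryo 2 cells, which had 62.3% (cell 6) and 76.8% to 80.3% (cells 2, 5, 7 and 8). On the rest of chromosome 11, 88.3% of its bins were replicated, against 89.4% ± 5.13 (SD, n = 5), with 80.3% in cell 6 and 90.8% to 92.7% in the other 4. It was thus above cell 6 and below the other 4 cells in both. Inside the region the values were 8.39% against 79.5% ± 8.53 (SD, n = 5). The single values inside were 78.7% in cell 2, 83.0% in cell 5, 65.2% in cell 6, 87.1% in cell 7 and 83.5% in cell 8, and only cell 3 lay outside this range. In the other 5 cells the region was 0.94 to 6.81 percentage points above the other bins of the same cell, and in cell 3 the same difference was -67.7 points.

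**Figure D1:**
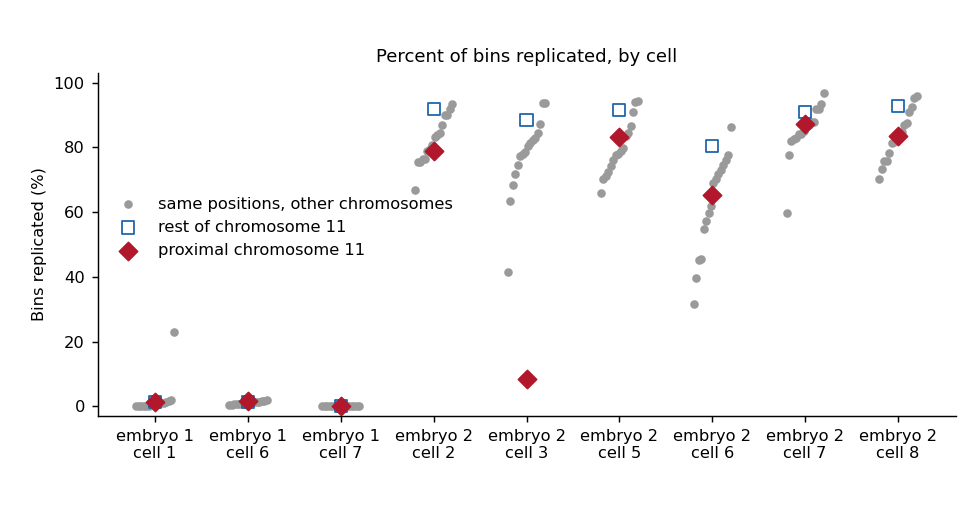
Percent of bins with a state that were replicated in each cell (y axis) for each of the 9 blastomeres (x axis). Red diamonds are the region, open blue squares the rest of chromosome 11, and grey points the same positions on each of the other 16 chromosomes of the table. The red diamond of embryo 2 cell 3 sits at 8.39%, under all 16 grey points of that cell, the lowest of which is 41.6%.

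The same positions on the 16 other chromosomes gave 41.6% (chromosome 3) to 93.6% in cell 3, with a median of 79.4%, so none of them was below the region. In the other 5 cells between 5 and 10 of the 16 windows were below the region. Embryo 1 cells had 20, 24 and 1 replicated bins in the region, or 1.45%, 1.73% and 0.07%. Cell 3 therefore had 92 more replicated bins here than the highest of the embryo 1 cells, and 764 fewer than the lowest of its sisters, cell 6. The study placed embryo 1 cells before or after S phase, with even copy number. An unreplicated state in them therefore need not mean uncopied DNA. In cell 3, 1 of the 1384 bins had no state, against 2 to 35 bins in the other embryo 2 cells. Read depth is not kept beside the states, so how deeply these bins were covered could not be seen.

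The region was chosen on the states of cell 3, and its distal edge falls at a change of state in that cell. The values at this edge are therefore a description and not a finding about sharpness. The last bin inside, which starts at 59160001, was unreplicated in cell 3 and the first bin outside, chr11:59200001-59240000, was replicated in it, while the other 5 cells had both bins replicated. From that bin on, cell 3 was replicated without a break for 173 bins (7.04 Mb, up to 66240000). Over the 5 Mb inside the edge 7.44% of bins were replicated in cell 3 and 76.0% to 100% in its sisters. Over the 5 Mb outside it, 100% were replicated in cell 3 and 96.7% to 100% in its sisters. Median GC content was 44.4% inside and 45.4% outside. At the proximal edge the table of chromosome 11 itself starts, and its first bin, which ends at 3240000, was unreplicated in cell 3 and replicated in the other 5. There is no bin outside to compare with it.

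**Figure D2:**
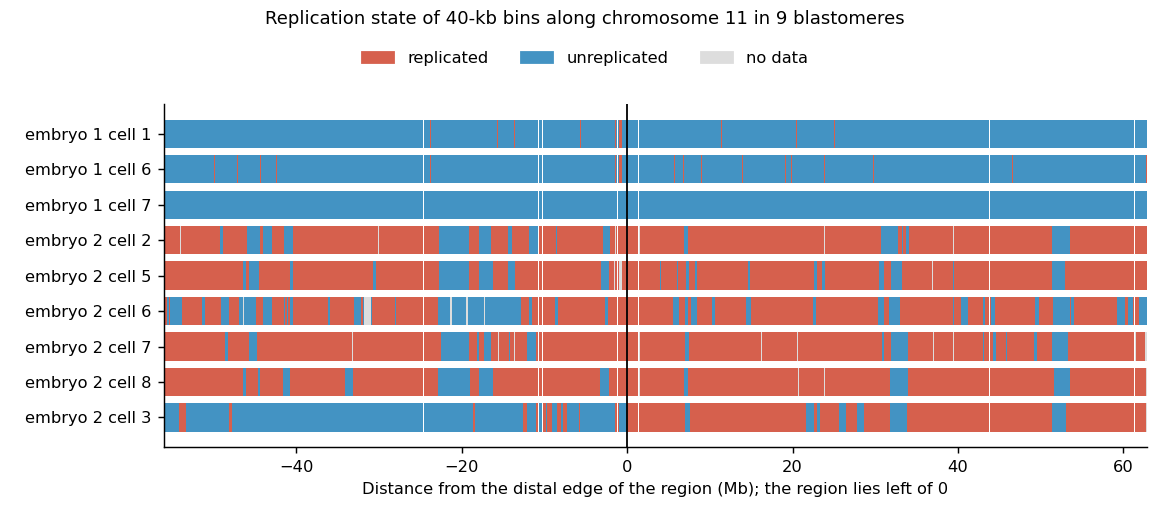
Replication state of each 40-kb bin (red replicated, blue unreplicated, grey no data, white no bin in the table) along chromosome 11 in 9 cells, 1 cell per row. The x axis is the distance from the distal edge of the region in Mb, with the region to the left of 0. In the bottom row, embryo 2 cell 3 is blue over most of the region and red from the edge on, whereas the other 5 embryo 2 cells are mostly red on both sides.

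Along the region, embryo 2 cell 3 formed 23 stretches of a single state, 12 unreplicated and 11 replicated. Unreplicated stretches were 5 to 721 bins long and covered 1267 bins. Replicated stretches were 4 to 21 bins long, with a median of 10 bins. In the other 5 cells the replicated stretches of the region had medians of 35 to 117.5 bins, and outside the region the replicated stretches of cell 3 itself had a median of 42 bins. The longest unreplicated stretch, chr11:11440001-40520000, spanned 29.1 Mb. In the rest of the table the longest unreplicated stretch of cell 3 was 8.84 Mb, on chromosome 3. Among the other embryo 2 cells the longest anywhere was 10.0 Mb, in cell 6 and within this region (chr11:36360001-46400000).

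Genes of the 11 replicated stretches are named here for their position, not for their RNA. The first stretch, chr11:5080001-5920000, was also the longest (21 bins) and held 25 genes, among them Xbp1, a transcription factor of the unfolded protein response, Pold2, a subunit of DNA polymerase delta, and Mrps24, a mitochondrial ribosomal protein. The gene Ewsr1, an RNA-binding protein, ran across its proximal border. Vwc2 and Zpbp lay in chr11:11040001-11440000. A group of cell cycle genes, Hmmr, Nudcd2 and Ccng1, lay with Mat2b in chr11:40520001-40800000, a stretch that cell 6 had unreplicated throughout and the other 4 sisters replicated throughout. The receptor genes Timd2, Havcr1 and Timd4 of the TIM family lay in chr11:46600001-47120000.

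A series of short stretches followed further along. The stretch chr11:48160001-48480000 held 1 gene and no protein-coding gene, and only 1 of its 8 bins (12.5%) was replicated in cell 2 while all were in cells 5, 6, 7 and 8. Olfactory receptor genes and Mgat1 lay in chr11:49080001-49360000, Cnot6, Mapk9 and Flt4 in chr11:49560001-50160000, and a cluster of zinc finger genes with Zfp2 and Zfp354a in chr11:50680001-51160000. Hnrnpab, Nhp2, Sar1b and Sec24a lay in chr11:51480001-51880000. The shortest stretch, chr11:53400001-53560000, had 4 bins and contained Gdf9, an oocyte growth factor, and Uqcrq, a subunit of respiratory complex III. Mrpl22, Larp1 and Hand1 lay in or across the last stretch, chr11:57720001-58240000. Of the 11 stretches, 8 (78 bins) started at or after position 46600001, the start of the stretch with Timd2. This position was taken from the states of cell 3 itself, so the split is a description. From there to the distal edge 25.5% of the bins of cell 3 were replicated, against 3.53% of the 1077 bins before it, and its sisters averaged 89.8% and 76.6%.

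In windows of 14 Mb, cell 3 had 8.88%, 0%, 2.02% and 22.9% of bins replicated from the proximal to the distal end. The mean of the other 5 cells was 81.8%, 91.5%, 56.4% and 88.5% in the same windows. The second window, chr11:17200001-31200000, thus had no replicated bin in cell 3 although it had the highest mean of the other cells, with 83.6% to 100% in single cells. The third window was the least replicated of the region in each of the other 5 cells, at 37.5% to 66.3%.

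Bins that were late in the sister cells were unreplicated in cell 3 as well. Of the 1325 bins of the region with a state in all 6 embryo 2 cells, 92 were replicated in none of the other 5 cells, 57 in 1, 58 in 2 and 104 in 3, and no bin of these 4 classes was replicated in cell 3. Of the 260 bins replicated in 4 of the others, 24 (9.23%) were replicated in cell 3. Of the 754 bins replicated in all 5, 87 (11.5%) were. Outside the region the shares in cell 3 from timing 0 to 5 were 10.9%, 28.4%, 41.9%, 62.1%, 87.7% and 95.7%. All 111 replicated bins counted in this way therefore belonged to the 2 earliest timing classes, but most bins of those classes in the region were unreplicated.

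**Figure D3:**
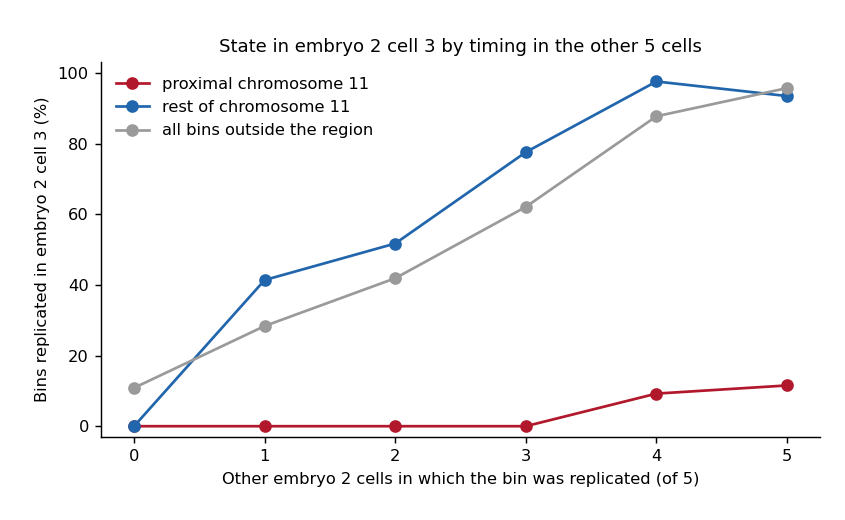
Percent of bins replicated in embryo 2 cell 3 (y axis) by the number of the other 5 embryo 2 cells in which the bin was replicated (x axis, 0 to 5), for the region (red), the rest of chromosome 11 (blue) and all bins outside the region (grey). The red line stays at or below 11.5%, while the grey line climbs from 10.9% to 95.7%.

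Bins unreplicated in cell 3 and replicated in all 5 sisters numbered 667, or 50.3% of the 1325. Over all chromosomes, 1754 of 50126 bins with a state in all 6 cells (3.5%) met the same description, and 38.0% of those lay in this region. On the rest of chromosome 11 the share was 4.90%, on chromosome 3 it was 9.21%, and on each of the remaining 15 chromosomes it was at or below 4.05%. The same count with another embryo 2 cell as the single unreplicated cell gave 0 to 17 bins of the region (0% to 1.28%). Cell 6, the least replicated cell of the embryo, had the highest of these in the region and 13.8% elsewhere. Without cell 6 the share for cell 3 was 63.7%.

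Agreement between pairs of cells restates the states on which the region was chosen, so it is a description and not further evidence. Inside the region cell 3 had the same state as each sister in 21.2% to 40.6% of bins, whereas the 10 pairs among the other 5 cells agreed in 71.5% to 90.9%. Outside it, the pairs with cell 3 agreed in 73.5% to 85.8% of bins and the other pairs in 72.7% to 88.3%. Of the 22 borders between states of cell 3 in the region, 11 (50%) lay where all 5 other cells were replicated on both sides. For borders of cell 3 outside the region that share was 19.2%, and for borders of the other 5 cells within the region it was 0% to 8.33%. For borders of cell 6 outside the region it was 50.4%, as high as for cell 3 inside.

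Base composition differed by timing. Among bins replicated in all 5 sisters, the only timing class compared, it differed by less than 1 percentage point at the median between the states of cell 3. Median GC content of the bins of the region was 37.2% at timing 0 and 43.2% at timing 5, and outside the region it was 37.5% and 43.5%. Among bins of the region replicated in all 5 sisters, median GC was 43.8% (interquartile range 41.2% to 46.5%) for the 87 that cell 3 had replicated and 43.2% (40.4% to 46.0%) for the 667 that it had not. The repeat-masked share was 30.2% and 29.3% at the median. Protein-coding genes were denser in the stretches that cell 3 had replicated, with 18.8 per Mb (90 genes in 4.80 Mb) against 7.08 per Mb (361 genes in 51.0 Mb) in the unreplicated stretches. Gene density was not compared at equal timing, and the unreplicated stretches include the late bins. The long unreplicated stretch had 4.195 per Mb and the last one, next to the distal edge, had 46.9 per Mb.

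The RNA was then set beside the states, with the question of whether genes in DNA left unreplicated in cell 3 had less RNA there. Of the 969 genes, 456 were protein-coding and 212 were processed pseudogenes. By the sign of the mean state over the bins a gene overlaps, 559 genes were unreplicated in cell 3 alone, 202 were unreplicated in cell 3 and in some of the others, 11 were unreplicated in all 6 cells, 134 were replicated in cell 3, and 63 had no single state in at least 1 cell. A mean of at least 1 TPM over the 9 cells was reached by 278 of the 969 genes, of which 169 were unreplicated in cell 3 alone and 43 replicated in cell 3, and none of the 11 unreplicated in all 6 reached it. Summed over all genes of the region, RNA made up 2.38% of TPM in cell 3, inside the 2.25% to 2.57% of its sisters. Values above 1 TPM were found for 260 genes of the region in cell 3 and for 218 to 260 in the others.

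The median difference between cell 3 and the mean of the other 5 cells, on the log2(TPM + 1) scale, was 0.16 over the 278 genes (interquartile range -0.46 to 0.80). Over the 13286 genes outside the region that passed the same filter it was 0.07, and over the 763 on the rest of chromosome 11 it was 0.20. When each sister was taken in turn as the cell compared, its median over the region ranged from -0.32 to 0.17, with an SD of 0.22 over the 5 cells. The value of cell 3 lay within that range. Relative to the genes outside the region, the median was higher by 0.09 in cell 3 and spanned -0.13 to 0.07 in its sisters. For the 169 genes unreplicated in cell 3 alone the median was 0.13, with 74 genes below 0 and 95 above (43.8% below). For the 43 replicated in cell 3 it was 0.21, with 19 below and 24 above (44.2% below). Outside the region 45.4% of genes were below 0. At a mean of at least 10 TPM the medians were 0.03 for 85 genes unreplicated in cell 3 alone and -0.03 for 25 replicated in it, so the order of these classes turned with the filter.

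**Figure D4:**
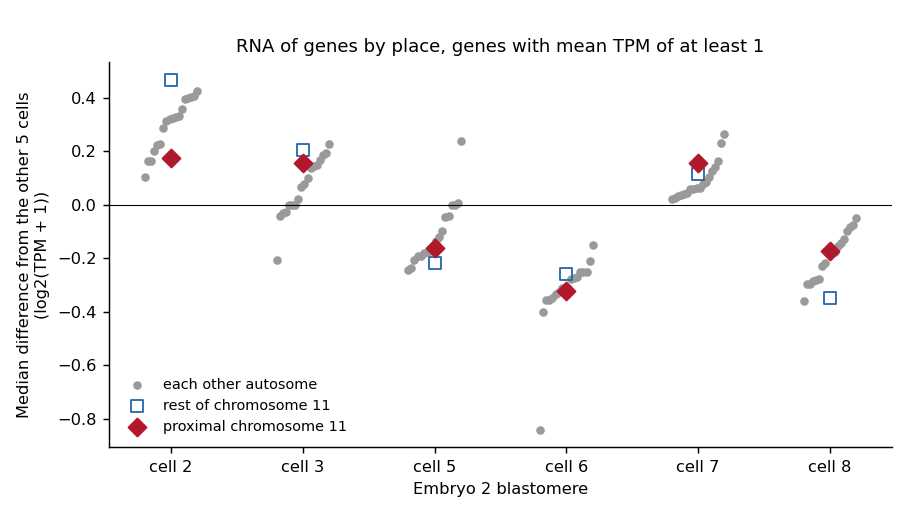
Median difference in log2(TPM + 1) between each embryo 2 cell and the mean of the other 5 (y axis) by cell (x axis), over genes with a mean of at least 1 TPM. Red diamonds are genes of the region, open blue squares genes on the rest of chromosome 11 and grey points genes of each other autosome. The red diamond of cell 3 is at 0.16, among the other chromosomes of that cell.

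The libraries were made by 2 variants of the method, scRR1 and scRR3. The sample list, unlike the labels, gives scRR3 for cells 2 and 3 and scRR1 for the other 4 cells of embryo 2. The comparison of cell 3 with all 5 therefore mixes the variants. For embryo cells the paper reports that scRR1 coverage leaned to the 3′ end and that fewer transcripts were found than with scRR3. Against cell 2 alone, the region median was 0.00 and that outside was -0.13. Mitochondrial genes took 5.98% of TPM in cell 3 and 6.82% in cell 2, and 9.31% to 18.2% in the other 4 cells, and the part of this in the comparison with all 5 was not tested. A gene was called lowest in cell 3 when its TPM there was below that in each of the other 5 cells. This held for 23 of the 278 genes (8.27%), against 9.63% of all 13650 genes with a mean of at least 1 TPM. The share highest in cell 3 was 22.7% (63 genes), against 16.6% of all genes. Taking each sister in turn, 5.04% to 24.1% of the genes of the region were lowest and 11.2% to 21.2% were highest. Over all genes the shares of the sisters were 6.45% to 21.3% lowest and 11.8% to 25.5% highest. The share of the region lowest in cell 3 lay inside the range of its sisters, and the share highest lay above theirs. Among the sisters the share highest was above that over all genes only in cell 8 (15.1% against 13.2%). In cell 2 it was 21.2% against 25.5% over all genes.

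Npm1, the nucleolar chaperone nucleophosmin, was at 2051 TPM in cell 3 and at 2301, 2611, 3366, 3912 and 2736 TPM in cells 2, 5, 6, 7 and 8. The 3 embryo 1 cells had 1097, 5197 and 1983 TPM. Cell 3 was the lowest of its embryo for Npm1, by less than the spread among the others, and lay inside the embryo 1 range. Rack1, a scaffold protein of the ribosome, was at 2543 TPM in cell 3 and at 2500, 2137, 2934, 2153 and 2650 TPM in the others. Rps27a, which encodes ubiquitin fused to a ribosomal protein, was at 2504 TPM against 1702 to 2839. Both values sat inside the range of the sisters, although the 3 genes lie in DNA that cell 3 alone had unreplicated. These genes, like Ppia, have processed copies elsewhere in the genome, so their exact TPM is uncertain where reads could be shared.

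Among the other abundant genes unreplicated in cell 3 alone, Ppia, the peptidyl-prolyl isomerase cyclophilin A, was at 1334 TPM against 1388 to 1719. The chaperonin subunit gene Cct4 was at 501 TPM against 292 to 474, above all 5 sisters. Hnrnph1, a splicing regulator, was at 370 TPM against 361 to 531, and Hint1, a nucleotide-binding hydrolase, at 393 TPM against 263 to 479. Rtn4, a reticulon that shapes the endoplasmic reticulum, was at 392 TPM in cell 3 and at 417, 1100, 760, 1736 and 958 TPM in cells 2, 5, 6, 7 and 8. The low values of Rtn4 were thus in cells 2 and 3 alike. Gm11032, also among the 10 highest protein-coding genes, was unreplicated in cells 3 and 6. It was at 999 TPM in cell 3 against 112 to 739, above all 5 sisters.

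The most abundant gene replicated in cell 3 was Timd2, a TIM family receptor, at 1879 TPM against 1739 to 2355. Hnrnpab, an RNA-binding protein, was at 533 TPM against 352 to 532 and Nhp2, a subunit of small nucleolar ribonucleoproteins, at 315 TPM against 137 to 299.7. Uqcrq was at 312 TPM against 124 to 241, Mrpl22, a mitochondrial ribosomal protein, at 274 TPM against 150 to 226, and Mrps24 at 210 TPM against 102 to 149. Cell 3 was above its sisters for these 5 genes, for Hnrnpab by less than 1 TPM. It was inside their range for Sar1b, a GTPase of vesicle budding (95.3 TPM against 72.6 to 160), and for Rmnd5b (98.8 TPM against 83.6 to 164). These genes were shown for their level and not compared by state, since over all genes of the region the order of the classes turned with the filter.

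**Figure D5:**
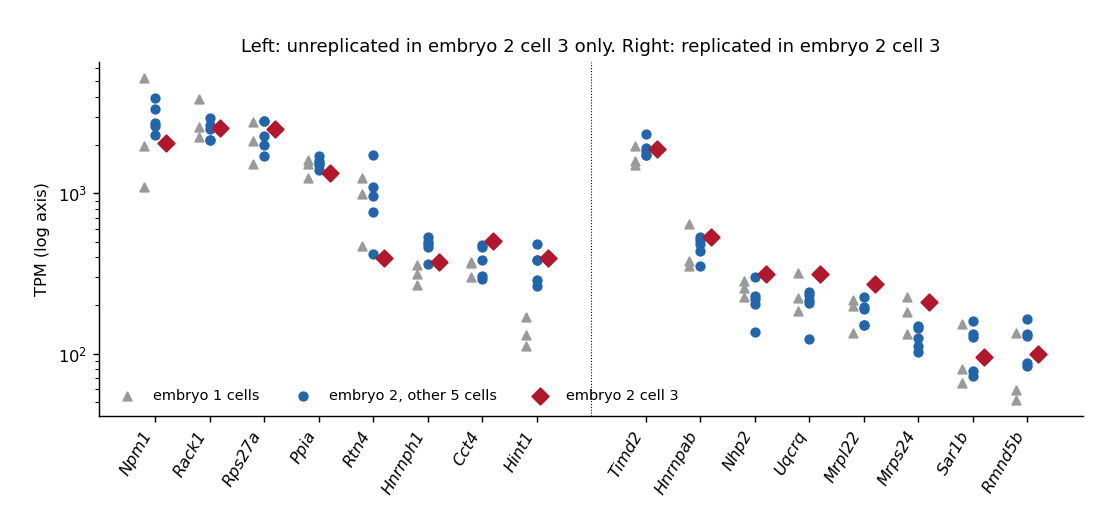
TPM (log axis) of the 8 protein-coding genes with the highest mean TPM among those unreplicated in embryo 2 cell 3 alone (left) and among those replicated in it (right), in the 3 embryo 1 cells (grey triangles), the other 5 embryo 2 cells (blue circles) and embryo 2 cell 3 (red diamonds). Cell 3 is below all 5 sisters for Npm1, Ppia and Rtn4, and above them for Cct4, Hnrnpab, Nhp2, Uqcrq, Mrpl22 and Mrps24.

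Gene lists of known function were followed next. For comparison, 559 of the 969 genes of the region were unreplicated in cell 3 alone. Among genes with a mean of at least 1 TPM, 8.27% in the region and 9.63% of all were lowest in cell 3. The lists are short, so their counts are not read as results about the lists. Of 10 genes listed for the oocyte and early embryo, 9 lay in the region. Among those, 6 were unreplicated in cell 3 alone, 1 in cell 3 and others, and Gdf9 was replicated in cell 3. Hand1 was replicated in cell 3 as well, but had no single state in cell 2 and was counted apart. The 7 with a mean of at least 1 TPM had a median difference of 0.34, with 3 below 0. Commd1, a copper metabolism gene, was at 56.0 TPM in cell 3 against 18.3 to 70.1, Hand1, a transcription factor of the trophoblast, at 23.7 TPM against 3.40 to 70.3, and Gdf9 at 6.72 TPM against 4.25 to 13.98. The cytokine gene Lif was at 6.05 TPM against 0.32 to 7.43. Tcf7, a transcription factor of Wnt signalling, was listed at 0 in cell 3 and at 1.58 to 3.28 TPM in the others, the 1 gene of this list lowest in cell 3.

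Of 11 genes for cell cycle and genome upkeep, 3 were replicated in cell 3 (Hmmr, Nudcd2 and Ccng1), 5 were unreplicated in it alone, and 3 in it and others. All 11 reached 1 TPM and their median difference was -0.10, with 6 below 0. Skp1a, an adaptor of SCF ubiquitin ligases, was at 193 TPM against 129 to 679, and Pttg1, the securin that holds sister chromatids together until anaphase, at 287 TPM against 159 to 328. Nudcd2 was at 137 TPM against 45.7 to 106, and Ube2b, a ubiquitin-conjugating enzyme, at 87.0 TPM against 46.8 to 120. Only Cdkn2aipnl was lowest in cell 3, at 19.7 TPM against 26.2 to 46.1.

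For RNA and protein handling, 20 of 20 listed genes lay in the region, 14 of them unreplicated in cell 3 alone, 2 in cell 3 and others, 2 with no single state, and 2, Xbp1 and Uqcrq, replicated in it. The 19 with a mean of at least 1 TPM had a median difference of 0.05, ranging from -1.19 (Rtn4) to 1.22 (Xbp1), with 9 below 0. Besides Npm1 and Rtn4, Rab1a, a GTPase of vesicle transport, was lowest in cell 3, at 71.7 TPM against 98.5 to 175. These 3 were the members lowest in cell 3 among the 19, beside the 9.63% of all genes given above.

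Listed genes of neurons, muscle and blood were mostly at 0 or below a mean of 1 TPM over the 9 cells. For comparison, 28.7% of all genes of the region and 48.2% of its protein-coding genes reached that mean. Outside the region these shares were 24.5% and 48.0%. The share at 0 in every cell over all genes is not given here, so the counts at 0 are not read as a result. Of 12 genes of the inhibitory receptor and neural or muscle list, 8 were listed at 0 in every cell and only Camk2b, a calcium-dependent kinase, reached a mean of 1 TPM (1.53). Gabra6 and Gabrb2, which encode GABA-A receptor subunits, were unreplicated in all 6 cells and listed at 0 in every cell. Of 19 blood and immune genes, 14 were unreplicated in cell 3 alone, 3 in cell 3 and others, and 2 (Havcr1 and Timd4) were replicated in it. In this list 11 genes were at 0 in every cell and only Havcr1 reached a mean of 1 TPM, at 30.2 TPM in cell 3 against 26.3 to 66.5. The alpha globin genes Hba-a1 and Hba-a2, whose near-identical sequence leaves their reads hard to separate, were listed at 0 in cell 3. In its sisters they reached at most 0.71 and 2.76 TPM. Olfactory receptor genes numbered 53, of which 35 were listed at 0 in all cells. Of the 53, 17 were replicated in cell 3, 25 were unreplicated in it alone and 11 had no single state. Over all 969 genes of the region these numbers were 134, 559 and 63. The pseudogene Olfr1372-ps1 had the highest mean among the olfactory receptor genes, 10.7 TPM.

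Among the 142 genes with a mean of at least 10 TPM, the 5 furthest below in cell 3 were Rps15a-ps6 (-3.23 on the log2 scale), Ugp2 (-2.40), Ublcp1 (-1.59), Phykpl (-1.55) and Mir7652 (-1.43). Ugp2, which makes UDP-glucose, was at 2.71 TPM in cell 3 and at 4.44, 8.77, 36.8, 55.6 and 24.5 TPM in cells 2, 5, 6, 7 and 8. Ublcp1, a phosphatase of the proteasome, was at 22.1 TPM in cell 3 and at 10.97, 119, 70.8, 119 and 133 TPM in those cells. For both genes cell 2 was low together with cell 3. Phykpl, whose span overlaps Hnrnpab so that their reads could be mixed, was replicated in cell 3 and at 9.28 TPM there against 2.50 to 232. Mir7652 was listed at 0 in cell 3 and 4 of its sisters, and Rps15a-ps6, a copy of a ribosomal protein gene, was listed at 0 in cells 2 and 3.

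At the other end were Gm12168 (3.47), Gm12088 (2.79), Gm24157 (2.56), Gm11966 (2.56) and Limk2 (2.03). Limk2, a kinase of actin regulation, was at 148 TPM in cell 3 and at 72.5, 7.64, 142, 39.0 and 16.9 TPM in cells 2, 5, 6, 7 and 8, so cell 6 nearly matched it. The non-coding RNA Gm12088 was at 49.9 TPM against 1.98 to 21.04, and the processed pseudogene Gm12168 at 64.9 TPM against 0 to 19.4. Gm24157 and Gm11966 are short features at 0 in some sisters and at 242 and 2021 TPM in others. Genes unreplicated in cell 3 alone made up 3 of the 5 furthest below (Rps15a-ps6, Ugp2 and Mir7652) and 4 of the 5 furthest above (Gm12168, Gm12088, Gm24157 and Limk2), near their share of 59.9% among the 142 genes.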

How the data were processed

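The replication table deposited by the authors gives each of 51976 bins of 40 kb a score of 1 (replicated), -1 (unreplicated) or 0 (no data) per cell. They had aligned reads to mm10 with BWA (0.7.17-r1188, per the submitters' processing notes), corrected mappability with embryo cells outside S phase, removed blacklisted regions and called states with AneuFinder. For RNA the authors deposited TPM from RSEM within ramdaq, annotated with GENCODE M25, as whole-gene values per cell. The labels described 13 cells, of which the tables held columns for 9. A further 14 columns per table carried no label of the series and were not used. RNA columns were matched to cells by the number closing each title, since all their headers carry the same embryo and cell. Genes were placed by GENCODE M21 (same build), in which 55141 of 55487 identifiers were found without version numbers, and counted where they overlapped the region. RNA differences used log2(TPM + 1), which understates changes of low genes, for genes with a mean of at least 1 TPM over the 9 cells. GC content and promoters came from GRCm38 RefSeq files. The region, gene lists, named genes (the 10 highest protein-coding genes, 8 per replication state, list members by level and the 5 furthest in each direction) and alternatives were chosen with earlier results of these data known. Scripts were tested on simulated data. Python 3.11.15, numpy 2.4.6, pandas 2.3.3 and matplotlib 3.10.9 were used.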

Additional observations from a re-analysis of the deposited data

Results flagged for a closer look

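Values were marked where 1 of the 6 embryo 2 cells stood apart from the other 5 by more than Dixon's critical value. The states of the region in cell 3, which chose the region, and genes named for lying furthest off in cell 3 were not examined in this way. Of 40 values examined, 6 were marked. Chance marks about 1 in 20 independent values, and several of these values share cells and bins, so the number marked is not a test.

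Embryo 2 cell 6 stood apart outside the region. It had 80.3% of bins replicated on the rest of chromosome 11, against 88.3% to 92.7%, and 62.3% over all bins outside the region, against 76.0% to 80.3%. Outside the region 13.8% of bins were unreplicated in cell 6 alone, against 0.81% to 2.23% for the other cells. Among the named genes, Olfr1385 (8.56 TPM, against 0 to 0.69) and Skp1a (679 TPM, against 129 to 325) stood apart in cell 6, and Timd2 (2355 TPM, against 1739 to 1908) in cell 2.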

How the results depend on the processing

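Of 29 alternatives to 7 results, 24 moved the value by less than the SD of the same measure over the other 5 embryo 2 cells, or a count by less than 1.5 times. Against the rest of chromosome 11 alone, the region minus other bins was -79.9 percentage points. The share of bins unreplicated in cell 3 and replicated in the other embryo 2 cells was 49.6% after taking the majority state over 5 bins, and 50.6% to 63.7% when each of the other cells was left out in turn, the highest value being without cell 6. The median RNA difference ranged from 0.09 to 0.26 when each sister was left out, and was 0.29 with a pseudocount of 0.1, 0.02 with a pseudocount of 10, and 0.00 without a filter or against cell 2 alone. It was -0.01 against cell 2 alone at a mean of at least 10 TPM. Genes lowest in cell 3 were 11.3% at a mean of at least 10 TPM and 8.99% after scaling to the median of each cell. With states taken at the gene start, 557 genes in place of 559 were unreplicated in cell 3 alone, 553 of them the same genes. No paired analysis was possible because the cells of different embryos share only a number and no comparison between groups was tested. Each cell was measured by 1 DNA and 1 RNA library, and neither table keeps read depth, so no counting error could be given.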
